A study of Mus musculus with 6 samples.

Results

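A set of 10 genes of receptor and cyclic AMP (cAMP) signalling was followed in mouse islets of Langerhans, the endocrine clusters of the pancreas: the receptors Glp1r, Gipr, Gcgr, Galr1, Adra2a, Chrm3 and Ffar1, the adenylyl cyclase Adcy5, the phosphodiesterase Pde3b and the transcription factor Creb1. They were taken by symbol from a table of 24407 genes, and all 10 were found. Islets came from 70-week-old C57BL/6 mice on regular chow. One group carried the Lmna LCS allele and makes lamin C but no lamin A (LCS), and the other was wild type (WT). Each group had 3 libraries, and each library pooled the islets of 3 mice, so libraries differ as pools and not as single animals.

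Islet hormone release is tuned by G protein-coupled receptors. Receptors coupled to Gs switch on adenylyl cyclases, which make cAMP, and receptors coupled to Gi hold them back. Receptors coupled to Gq act through phospholipase C and calcium. In beta cells cAMP amplifies glucose-stimulated insulin release through protein kinase A (PKA) and Epac, phosphodiesterases break it down, and CREB carries the signal to gene transcription.

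The libraries held 26123654 to 68036676 counts. Rn45s, Lars2 and Mir6236, which collect ribosomal RNA reads, took 52.3% to 54.1% of counts in LCS and 7.64% to 18.5% in WT. WT replicate 1 stood apart from its group. Its mean correlation across genes was 0.971 with the other WT libraries and 0.969 with the LCS libraries, where WT replicates 2 and 3 had 0.982 and 0.978 within WT against 0.960 and 0.947 with LCS. Levels are given as CPM (counts scaled to library size, here by TMM). Beta cell markers fixed for the comparison summed to 175310 to 263800 CPM in LCS and 147930 to 172360 in WT. All 10 were tested and 0 were called, with 6 above 0 and 4 below. Ins2 was the largest part of these sums, and Ins1 and Iapp overlapped between the groups. Of the other cells' markers, acinar ones were higher in LCS and summed to 510.7 to 868.8 CPM against 175.97 to 269.1 in WT, with 11 of 12 tested called. PP cell markers summed to 3247 to 6029 CPM in LCS against 838.3 to 1489 in WT, with 1 of 2 called higher. Alpha cell markers summed to 16564 to 21848 CPM in LCS and 12686 to 16713 in WT. Of the 8 tested 1 was called higher (Gc), 7 lay above 0 and 1 below, with a median log2 fold change of 0.60. Of the duct, endothelial and stellate cell markers 0 were called, and their sums overlapped between the groups. Of 6 macrophage markers 1 was called higher and 4 lay below 0, with sums of 32.98 to 39.2 CPM in LCS and 25.34 to 32.6 in WT. Of the acinar markers Amy2a5, Ptf1a and Rbpjl were too low to be tested.

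One of the 10 genes fell, Galr1, and none rose, at an adjusted p under 0.05 in edgeR's quasi-likelihood test over all 14539 genes tested. The same rule called 0.144% of all tested genes lower and 2.06% higher. At an unadjusted p under 0.05, 4 of the 10 were lower (Galr1, Gipr, Creb1 and Pde3b) and 0 higher, against 10.8% and 13.3% of all tested genes. DESeq2 called these same 4 genes lower and 0 higher, where it called 4.13% of its tested genes lower and 6.6% higher. With WT replicate 1 left out, edgeR called 3 lower (Galr1, Creb1 and Pde3b) and 1 higher (Adra2a), against 7.68% and 12.5% of all tested genes. Of the 10, 7 had a log2 fold change (LCS minus WT) below 0, with a median of -0.27, and 48.9% of all tested genes lay below 0, with a median of 0.01. Galr1, Creb1 and Pde3b had every LCS library below every WT library; 12% of all tested genes were separated in this direction and 14.6% in the other. In bulk islets a lower value can stand for fewer cells of a type or for less RNA per cell, and these cannot be told apart.

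**Figure D1:**
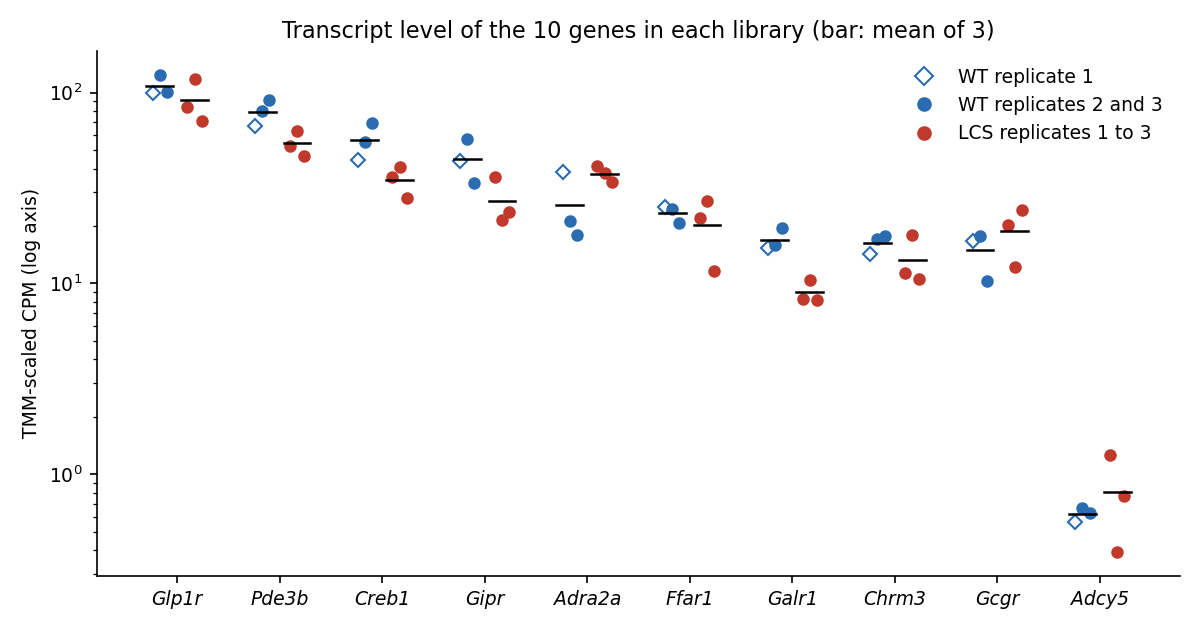
TMM-scaled CPM (log axis) of the 10 genes in each library, WT in blue with replicate 1 as an open diamond and LCS in red; bars are means of 3 libraries. Galr1, Creb1 and Pde3b show no overlap between the groups, and the Adra2a value of WT replicate 1 (38.3 CPM) lies among the LCS values.

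Per kilobase of transcript, Glp1r was the most abundant of the 10 in WT islets at 18.6 ± 2.43 CPM per kb (SD, n = 3). Gipr followed at 15.7 ± 4.17, Pde3b at 12.1 ± 1.82 and Creb1 at 11.2 ± 2.46 CPM per kb. Gcgr, Adra2a, Galr1 and Ffar1 lay lower, at 7.63, 7.21, 5.66 and 5.62 CPM per kb. In this order each gene's WT range overlapped that of the next, down to Ffar1. Chrm3 at 3.77 ± 0.44 CPM per kb lay below Ffar1 without overlap, and Adcy5 at 0.0882 ± 0.00756 CPM per kb lay far below Chrm3. In LCS islets Glp1r was again first, at 15.7 ± 4.16 CPM per kb, and Adra2a was second at 10.5 ± 1.03. Gipr came after Gcgr in LCS, at 9.46 ± 2.71 CPM per kb, and Galr1 lay last but for Adcy5, at 3.01 ± 0.435. These LCS ranks were not separated. Adra2a (9.43 to 11.5 CPM per kb), Gcgr (6.21 to 12.4) and Gipr (7.56 to 12.6) overlapped in LCS. Galr1 (2.74 to 3.51) lay within the LCS range of Chrm3 (2.43 to 4.15). Lengths came from another annotation than the counts, so this order is approximate.

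The receptors for glucagon-family peptides come first. Glp1r (gene 14652) encodes the receptor for GLP-1, the incretin that raises cAMP in beta cells. Its levels were 99.1, 124.2 and 100.4 CPM in WT replicates 1 to 3 and 83.8, 118.0 and 71.3 CPM in LCS replicates 1 to 3. LCS replicate 2 lay within the WT range and the other LCS libraries lay below it. The log2 fold change was -0.24 (95% interval -0.68 to 0.20, edgeR adjusted p = 0.47).

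Gipr (gene 381853) encodes the receptor for GIP, the other incretin. It had 43.8, 57.2 and 33.5 CPM in WT and 35.9, 21.6 and 23.6 CPM in LCS. Only LCS replicate 1 reached into the WT range, above WT replicate 3. The log2 fold change of -0.73 (SE 0.24, 95% interval -1.27 to -0.19) missed the threshold (edgeR adjusted p = 0.12). With single libraries left out it ranged from -0.96, without LCS replicate 1, to -0.52. Gipr was not called without LCS replicate 1. The sample titles number WT replicates 1 and 2 far from the other 4 libraries, and what these numbers mark is not stated. Without both of them Gipr was at -0.31 (edgeR adjusted p = 0.548), from a single WT library.

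Gcgr (gene 14527), the glucagon receptor, had 16.8, 17.7 and 10.3 CPM in WT and 20.1, 12.2 and 24.2 CPM in LCS. The groups overlapped through LCS replicate 2. Its log2 fold change was 0.33 (95% interval -0.29 to 0.95, edgeR adjusted p = 0.483), and it was -0.055 with an offset for both the length and the GC content of transcripts.

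Ratios within a library do not depend on library scaling. The ratios and shares given here had no offset for the length or GC content of transcripts. Within this receptor trio, per kilobase, Gipr made up 37.5%, 39.7% and 34.2% of the total in WT and 33.7%, 22.2% and 25.1% in LCS, without overlap. The Glp1r share was 44.8% ± 4.88 in WT and 45.2% ± 12.5 in LCS, and the Gcgr share 18.1% ± 2.78 and 27.8% ± 9.70 (SD, n = 3), both overlapping. There were 2.62, 3.23 and 3.26 Gipr counts per Gcgr count in WT and 1.78, 1.78 and 0.974 in LCS. Every LCS library therefore had fewer Gipr reads for each Gcgr read than any WT library. Of all pairs of tested genes 26.5% had ratios that did not overlap between the groups, so such a separation was common. No such background was computed for the shares.

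The Gi-coupled receptors Galr1 and Adra2a both restrain insulin release when their ligands bind. Galr1 (gene 14427) encodes a receptor for galanin, a neuropeptide. It had 15.3, 15.9 and 19.6 CPM in WT, from 736, 643 and 749 counts. The LCS libraries had 8.28, 10.5 and 8.20 CPM, from 237, 534 and 257 counts. All LCS libraries lay below all WT libraries, and the lowest WT library was WT replicate 1. Galr1 fell by 0.91 on the log2 scale (SE 0.18, 95% interval -1.31 to -0.51, edgeR adjusted p = 0.0336), a 1.88-fold lower level. It was lower in all 21 alternative settings, at -1.12 to -0.79, and was called in 15 of them, with adjusted p from 0.000468 to 0.572. Without WT replicate 1 it was -0.97 (edgeR adjusted p = 0.00646). The call was lost without LCS replicate 1 (edgeR adjusted p = 0.147), LCS replicate 3 (0.145), WT replicate 2 (0.111) or WT replicate 3 (0.107), and with a length offset (-0.89, 0.106). Its ligand gene Gal and the related receptor gene Galr3, named after their values were seen, were at 0.40 (SE 0.54, edgeR adjusted p = 0.677) and 0.71 (SE 0.45, 0.354).

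Adra2a (gene 11551) encodes the alpha-2A adrenergic receptor, through which noradrenaline acts. It had 38.3, 21.3 and 18.0 CPM in WT and 41.2, 37.7 and 33.9 CPM in LCS. WT replicate 1 lay within the LCS range, and WT replicates 2 and 3 lay below every LCS library. With all libraries the log2 fold change was 0.54 (SE 0.26, 95% interval -0.03 to 1.11) and missed the threshold (edgeR adjusted p = 0.232). Without WT replicate 1 it was 0.94 and was called higher (edgeR adjusted p = 0.00464). Delta cell markers were likewise higher in WT replicate 1 than in the other WT libraries, with summed levels of 1319 CPM in WT replicate 1, 491.6 and 311.8 CPM in WT replicates 2 and 3, and 1747 to 2284 CPM in LCS. These sums were mostly Sst, with 1209 CPM in WT replicate 1, while Ghsr was lower in WT replicate 1 (2.37 CPM) than in WT replicates 2 and 3 (4.17 and 4.75 CPM). Of the 4 delta markers tested 1 was called higher. Summed duct cell markers were also higher in WT replicate 1 (252.7 CPM) than in WT replicates 2 and 3 (143.1 and 136.0 CPM). The same held for stellate cell markers (59.96 against 14.11 and 22.57 CPM). Summed beta and alpha cell markers were lower in WT replicate 1 than in WT replicates 2 and 3. The part of any of these markers in the Adra2a values was not tested.

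A CREB site was looked for in the promoters, since Creb1 is one of the 10 genes. RefSeq promoters (GRCm38.p6, 250 bases before to 50 after the start) were searched for 7 of the 10. Gipr and Pde3b had no promoter in the set used, and that of Galr1 was not searched. The full site TGACGTCA was in 0 of these 7 and in 1.79% of 32851 promoters. The shorter TGACG, which the full site contains, was sought on both strands and was in 1 of the 7, that of Adra2a, and in 20.8% of all promoters. It begins 69 bases before the start. The whole stretch shown lies on the plus strand at chr19:54045178-54045207, with the TGACG in capitals.
Adra2a: ccacgtgggggcTGACGccggctgctcggc
A match of these letters is a description and not a measured binding site.

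Counts of the adrenergic and galanin receptors were also set against each other within each library. There were 2.503, 1.34 and 0.921 Adra2a counts per Galr1 count in WT and 4.98, 3.60 and 4.13 in LCS, so that the groups did not overlap with WT replicate 1 included. Glp1r counts per Galr1 count were 6.47, 7.83 and 5.13 in WT and 10.1, 11.3 and 8.69 in LCS. Of the 45 pairs among the 10 genes, 11 (24.4%) had ratios that did not overlap between the groups, and 26.5% of all pairs of tested genes did so. The share was thus near the background. Galr1 took part in 5 of the 11 and Adra2a in 4, and Ffar1 and Adcy5 in 0. No background was computed for the pairs of a single gene.

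Of the Gq-coupled receptors, Chrm3 (gene 12671) encodes the M3 muscarinic receptor, which carries the acetylcholine signal to beta cells. It had 14.2, 17.1 and 17.8 CPM in WT and 11.4, 18.0 and 10.5 CPM in LCS. LCS replicate 2 was the highest of all 6 libraries and the other LCS libraries were the lowest. On the log2 scale the difference was -0.29 (95% interval -0.78 to 0.19, edgeR adjusted p = 0.433).

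Ffar1 (gene 233081) encodes a receptor for long-chain fatty acids. It had 25.01, 24.6 and 20.7 CPM in WT and 22.02, 27.1 and 11.7 CPM in LCS. LCS replicate 3 lay well below the other 5 libraries. The log2 fold change was -0.21 (95% interval -0.80 to 0.38, edgeR adjusted p = 0.658) with all libraries and 0.079 without LCS replicate 3.

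**Figure D2:**
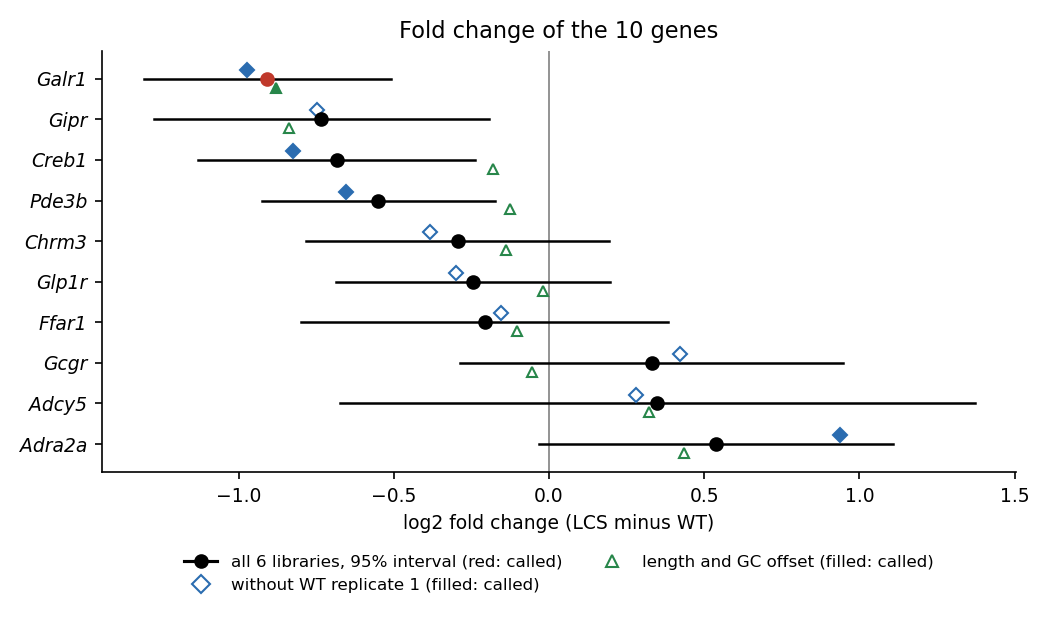
Log2 fold change (LCS minus WT) of the 10 genes with all 6 libraries (circles, with 95% intervals as lines), without WT replicate 1 (diamonds) and with a length and GC offset (triangles); red or filled symbols passed an adjusted p under 0.05. Galr1 lies at -0.91, -0.97 and -0.88 and is called in each, while Creb1 goes from -0.68 to -0.18 with the offset.

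Downstream of the receptors, Pde3b (gene 18576) encodes a phosphodiesterase that breaks down cAMP. It had 67.2, 79.7 and 91.1 CPM in WT and 52.8, 62.9 and 46.8 CPM in LCS. The groups did not overlap, with WT replicate 1 the nearest to LCS. Its log2 fold change was -0.55 (SE 0.17, 95% interval -0.93 to -0.17) and missed the threshold (edgeR adjusted p = 0.103). Without WT replicate 1 it was -0.65 and called lower (edgeR adjusted p = 0.0214). With a length offset it was -0.30 and with a length and GC offset -0.12.

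Creb1 (gene 12912) encodes the transcription factor that PKA activates. It had 44.3, 55.3 and 68.9 CPM in WT and 36.1, 40.8 and 27.97 CPM in LCS, again without overlap and with WT replicate 1 nearest to LCS. The log2 fold change was -0.68 (SE 0.20, 95% interval -1.13 to -0.24, edgeR adjusted p = 0.0944). Without WT replicate 1 it was -0.83 and called lower (edgeR adjusted p = 0.0131), and with a length and GC offset it was -0.18 (0.338).

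Adcy5 (gene 224129) encodes an adenylyl cyclase that calcium inhibits. It was counted 27, 27 and 24 times in WT and 36, 20 and 24 times in LCS, which gave 0.561, 0.666 and 0.627 CPM in WT and 1.26, 0.393 and 0.765 CPM in LCS. The LCS libraries spread wider than the WT libraries and enclosed them. The exact 95% Poisson interval for LCS replicate 1 was 0.881 to 1.74 CPM and for LCS replicate 2 it was 0.240 to 0.607 CPM, which covers counting error only. These intervals did not overlap, so the LCS libraries differed by more than counting error. Its log2 fold change was 0.35 (95% interval -0.67 to 1.37, edgeR adjusted p = 0.666).

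Adcy5 was a minor cyclase transcript. Per kilobase, Adcy6 made up 49.7% ± 1.77 and Adcy9 42.2% ± 0.431 of the 9 tested adenylyl cyclases in WT, and Adcy5 0.337% ± 0.0168 (SD, n = 3). In LCS the Adcy6 share was 45.4% ± 1.97 and the Adcy9 share was 43.8% ± 2.64. The highest LCS share of Adcy6, 47.3% in LCS replicate 3, lay just below the lowest in WT, 47.7% in WT replicate 1. The Adcy5 share was 0.518% ± 0.257 in LCS, with overlap. The share of Adcy4 was 2.96% ± 0.318 in WT and 5.34% ± 1.26 in LCS, without overlap. Of the 9 cyclase shares 1 was higher in LCS without overlap (Adcy4) and 1 lower (Adcy6). Among 15 tested cAMP phosphodiesterases Pde4b had the largest share, 34.4% ± 0.431 in WT and 32.2% ± 1.45 in LCS. Pde3b came next in WT with 15.6%, 16.9% and 17.9% against 14.9%, 15.1% and 15.3% in LCS, a difference of small size without overlap. In all, 7 of the 15 shares did not overlap between the groups. Pde4b, Pde3b and Pde7b were lower in LCS, and Pde4d, Pde8b, Pde1b and Pde3a higher. The Pde4d share was 5.55% ± 0.302 in WT and 7.76% ± 1.08 in LCS (SD, n = 3). Such shares were not computed for other gene families, so no background stands beside the counts for the cyclases and phosphodiesterases.

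**Figure D3:**
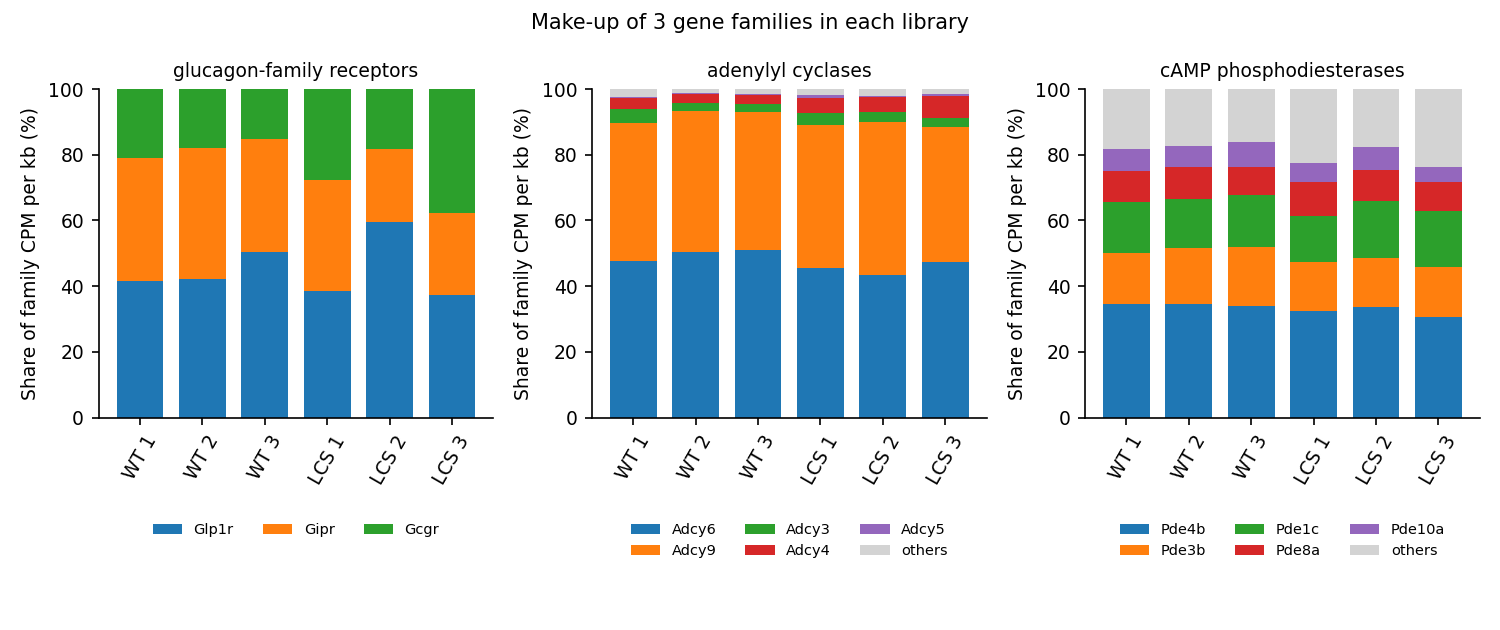
Share (%) of each family's summed CPM per kilobase in each library for the glucagon-family receptors, the adenylyl cyclases and the cAMP phosphodiesterases; stacked bars add to 100% and grey marks the remaining members. Gipr takes 34.2% to 39.7% in WT and 22.2% to 33.7% in LCS, and Adcy5 is too small a part of its family to stand out in any library.

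Transcript length moved with the fold changes of all genes. Protein-coding genes with transcripts under 1000 nt had a median log2 fold change of 0.71, those of 1000 to 2000 nt 0.31, those of 2000 to 4000 nt -0.01 and those over 4000 nt -0.24. Of the 10 genes 6 had transcripts over 4000 nt (Glp1r, Chrm3, Ffar1, Creb1, Pde3b and Adcy5), and 5 of these 6 lay below 0, as did 75.4% of all protein-coding genes of that length. Glp1r, Chrm3 and Ffar1 lay at -0.24, -0.29 and -0.21, close to the median of their length class. Galr1 with 2987 nt and Gipr with 2856 nt lay at -0.91 and -0.73 in a class whose median was near 0, and were at -0.88 and -0.84 with the length and GC offset. Adra2a, in the same class, was at 0.54 and at 0.44 with that offset. With the offset the median of the 10 genes was -0.11 in place of -0.27.

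**Figure D4:**
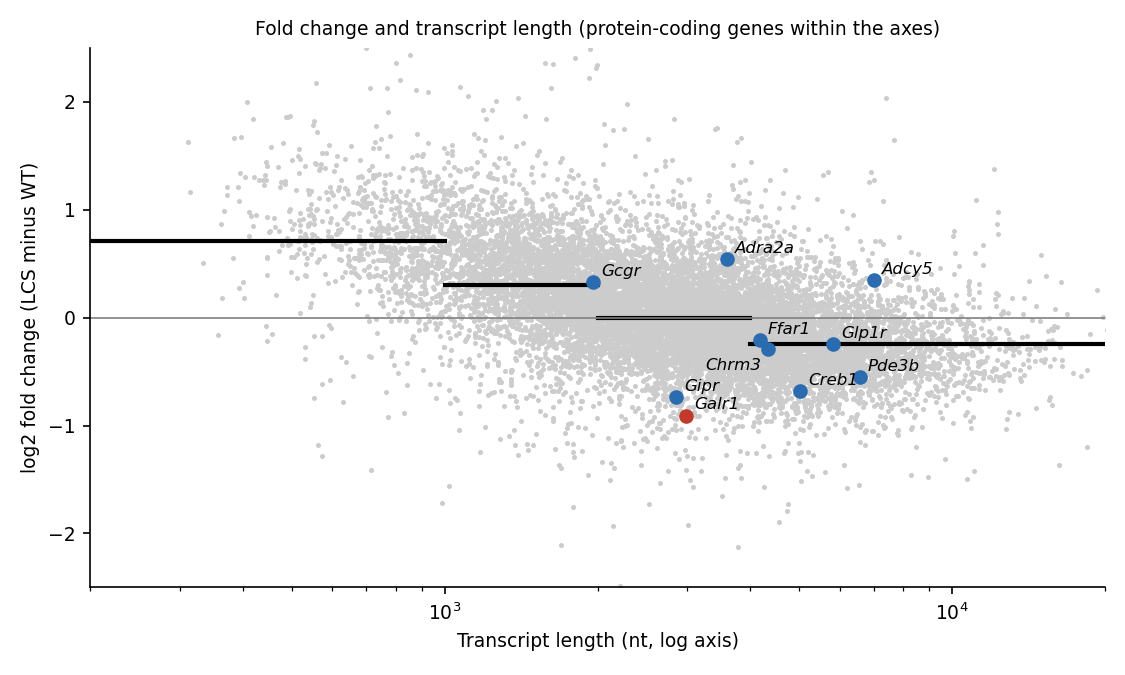
Log2 fold change (LCS minus WT) of protein-coding genes against transcript length (nt, log axis), in grey, with black lines at the medians of 4 length classes and the 10 genes as coloured points, red where called. Galr1 and Gipr lie at -0.91 and -0.73 where the class median is -0.01, and Glp1r, Chrm3 and Ffar1 lie close to the median of -0.24 of the longest class.

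The other genes of the pathway were described by 11 lists, whose counts are to be read against the shares of all tested genes. These were 2.06% higher and 0.144% lower at an adjusted p under 0.05, and 13.3% and 10.8% at an unadjusted p under 0.05. DESeq2 called 6.6% higher and 4.13% lower, and edgeR without WT replicate 1 called 12.5% and 7.68%. List genes named for the last of these fits or for DESeq2 were chosen after their values were seen. Of 13 tested Gs-coupled receptor genes none was called; after Gipr the smallest p belonged to the adenosine receptor gene Adora2b at 0.78 (SE 0.27, edgeR adjusted p = 0.129). Of 15 tested Gi-coupled receptor genes Galr1 alone was called. Without WT replicate 1, Adra2a, Galr3 and the somatostatin receptor gene Sstr2 were called higher and Galr1 and the cannabinoid receptor gene Cnr1 lower. Of 17 tested Gq-coupled receptor genes none was called, and the fatty acid receptor genes Ffar4 and Ffar2 had the smallest p, at 1.24 (SE 0.34, edgeR adjusted p = 0.0856) and 0.61 (SE 0.18, 0.0955). At an unadjusted p under 0.05 the Gs list had 1 gene higher and 1 lower, the Gi list 1 and 2, and the Gq list 2 and 0. DESeq2 called Gipr and Galr1 lower and Ffar2 and Ffar4 higher in these lists. The fit without WT replicate 1 also called Ffar2 and Ffar4 higher, and 0 of the Gs list.

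Of 24 tested G protein subunit genes 2 rose, both for small gamma subunits. Gng10 rose 1.80-fold, from 9.56 ± 1.14 to 17.2 ± 1.03 CPM, and Gng11 1.96-fold, from 5.95 ± 1.08 to 11.7 ± 0.505 CPM (SD, n = 3), with edgeR adjusted p of 0.0278 and 0.0296. An unadjusted p under 0.05 was reached by 5 of the 24 on the higher side and 4 on the lower. DESeq2 called 4 higher (Gnas and Gng5 besides these) and Gnaq lower. When WT replicate 1 was left out, edgeR called 6 higher (adding Gnaz and Gnb2 to those 4) and Gnaq lower. Transcripts of Gng10 and Gng11 were short, 1192 and 919 nt. With the length and GC offset neither was called, and their lowest values over all alternatives were 0.39 and 0.32. Both calls were lost without LCS replicate 1 (edgeR adjusted p = 0.122 and 0.123), LCS replicate 3 (0.105 and 0.114), WT replicate 2 (0.171 and 0.172) or WT replicate 3 (0.0949 and 0.0893), and that of Gng11 also without LCS replicate 2 (0.0518).

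None of the 9 tested adenylyl cyclase genes, 15 cAMP phosphodiesterase genes, 20 PKA and Epac genes or 11 genes of the CREB family, its coactivators and the SIK kinases was called. At an unadjusted p under 0.05, 1, 0, 1 and 1 of them were higher and 1, 5, 5 and 1 lower. DESeq2 called Pde3b, Pde7b, Akap8 and Creb1 lower among these and none higher. When WT replicate 1 was left out, edgeR called 7 lower (Adcy6, Pde3b, Pde7a, Pde7b, Akap8, Prkar2a and Creb1) and Pkig higher. List medians were -0.15, -0.32, -0.32 and -0.17, against 0.01 over all genes tested, and became -0.04, -0.13, -0.10 and -0.11 with the length and GC offset. Adcy6 was at -0.39 (SE 0.14, edgeR adjusted p = 0.138) and Pde7b at -0.81 (SE 0.27, 0.124). The PKA anchoring protein gene Akap8 was at -0.69 (SE 0.22, edgeR adjusted p = 0.112) and the PKA inhibitor gene Pkig at 0.70 (SE 0.23, 0.121). Crebbp, which encodes the CREB binding protein, was at 0.34 (SE 0.15, edgeR adjusted p = 0.198). Pkig has a short transcript of 983 nt and lay at -0.0093 with that offset.

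Of 21 tested CREB target genes none was called, an unadjusted p under 0.05 was reached by 0 of them, DESeq2 called 0, and the median was 0.19. In the fit without WT replicate 1, 7 of the 21 were called higher (Cited2, Egr1, Fos, Irs2, Junb, Mafa and Nfil3) and none lower. In 6 of these 7, all but Nfil3, WT replicate 1 lay above every LCS library, so that the direction of LCS against WT replicate 1 was the opposite. Junb, an early response factor, had 64.9, 11.7 and 6.74 CPM in WT replicates 1 to 3 and 32.3, 46.9 and 49.4 CPM in LCS. Egr1, another early response factor, had 51.0, 15.2 and 14.9 CPM in WT and 24.5, 20.4 and 34.1 CPM in LCS. Of 23 tested receptor kinase, arrestin and RGS genes none was called. At an unadjusted p under 0.05 there were 3 higher and 4 lower ones, and Rgs9 was called lower by DESeq2. When WT replicate 1 was left out, edgeR called Ramp1, Ramp2 and Ramp3 higher and Adrbk2, Rgs17 and Rgs9 lower. Rgs9, which speeds the turning off of Gi signals, was at -0.87 (SE 0.21, edgeR adjusted p = 0.0586) and the receptor kinase gene Adrbk2 at -0.50 (SE 0.17, 0.123). The ligand list also held the enzyme genes Chat and Th, and Chat had 3 to 12 counts a library. Of 10 tested ligand genes, counted with these, none was called and 9 lay above 0, with a median of 0.40. The median turned to -0.16 with the length offset and -0.20 with the length and GC offset, over the 9 tested in those fits. When WT replicate 1 was left out, edgeR called Ghrl, Pyy and Sst higher. Pyy, which encodes peptide YY, was at 1.82 (SE 0.42, edgeR adjusted p = 0.0561) and the ghrelin gene Ghrl at 0.95 (SE 0.28, 0.0965), and both were called higher by DESeq2. An unadjusted p under 0.05 was reached by 3 ligand genes, all higher. Pyy is also 1 of the 2 PP cell markers, whose summed levels are given above; their part in the ligand values was not tested.

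**Figure D5:**
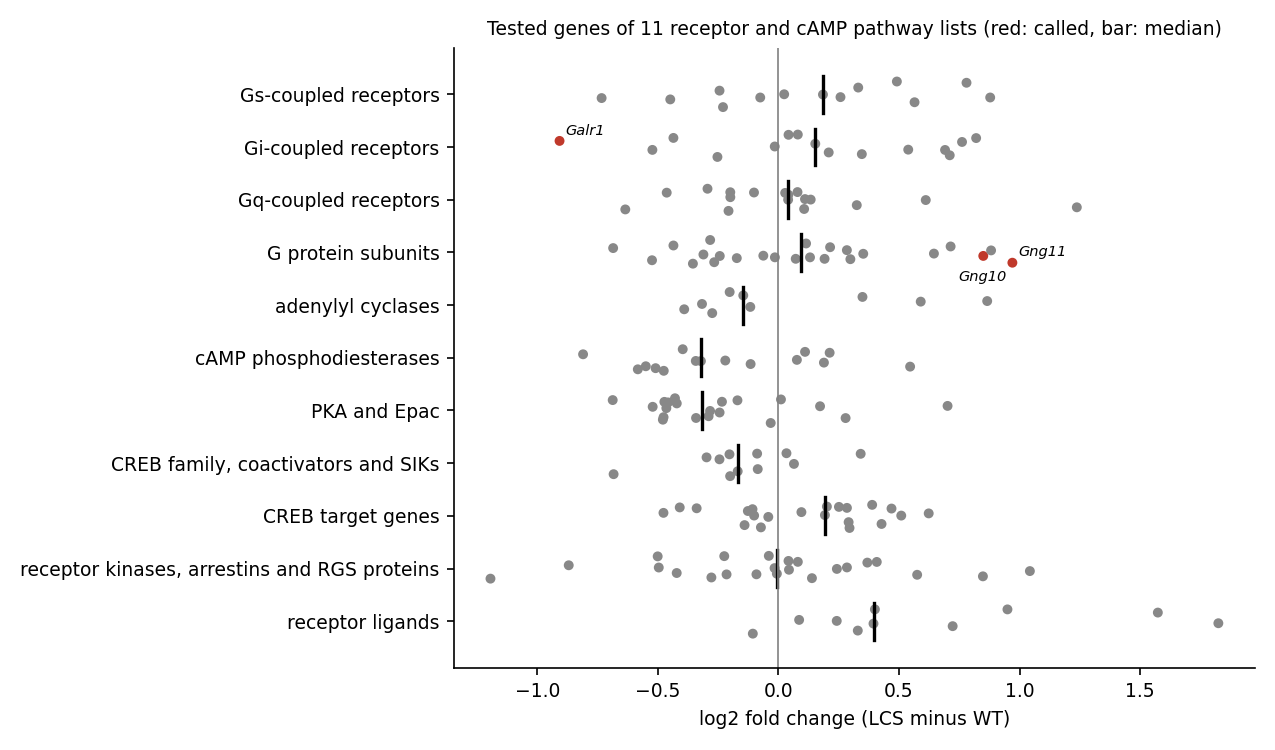
Tested genes of 11 receptor and cAMP pathway lists by log2 fold change (horizontal axis, LCS minus WT); red points were called and a black bar marks each median. Galr1, Gng10 and Gng11 are the called genes, and the medians of the phosphodiesterase and PKA lists lie at -0.32.

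The genes whose levels followed Galr1 most closely over the 6 libraries, among 9687 genes with a mean of at least 5 CPM, were Ppp3r1, Mgat3 and Zbtb10, with Pearson r of 0.996, 0.995 and 0.995 on log2 CPM. Ppp3r1, which encodes the regulatory subunit of calcineurin, was at -0.48 (SE 0.14, edgeR adjusted p = 0.0892). For Creb1 they were Gnptab, Kbtbd7 and Mbtd1, with r of 0.9996, 0.9991 and 0.999. With 6 libraries in 2 groups such values are common: 191 genes exceeded 0.95 with Galr1 and 989 with Creb1, so this is a description of shared order among libraries.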

How the data were processed

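Per the labels' protocols, the kit was TruSeq Stranded and RNA extraction used TRIzol. Tools named in the submitters' processing notes are TopHat2 2.1.1, HTSeq 0.9.0, Bowtie2 2.2.9, FastQC and bcl2fastq 2.20, with the mm9 build and no roles. The authors deposited raw whole-number counts per gene. The annotation and strand handling are not stated by labels or file headers, and antisense reads may not be separated.

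The labels gave the groups, and accession order only numbered the replicates. The main test was edgeR 4.0.16 (R 4.3.3) with filterByExpr, TMM and a quasi-likelihood fit of genotype on 6 libraries, adjusted by Benjamini-Hochberg over 14539 genes. Alternatives were DESeq2 1.42.0, limma-voom (limma 3.58.1), other scalings and filters, libraries left out, and loess offsets (span 0.5) for length and GC content. CPM is scaled by TMM, and log2 CPM used a prior count of 2. Transcript lengths were medians of GENCODE M21 transcripts, preferring those with a RefSeq match. The mm9 build differs from that of GENCODE M21, so gene coordinates are left out. The Adra2a promoter stretch alone is placed, on GRCm38.p6. The steps were tested on simulated counts. Figures used matplotlib 3.10.9.

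The 10 genes and all lists were chosen with earlier results of these data known. Named list genes were those called (up to 4 a list) or the 2 of smallest p. The genes most like a member were the 3 of highest correlation, for the 2 members of smallest p. One listed name, Icer, matched no gene. Counting intervals cover counting error only.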

Additional observations from a re-analysis of the deposited data

How the results depend on the processing

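With all 6 libraries 0 of the 10 genes were called higher and 1 lower, and 300 genes were called higher and 21 lower in all. Leaving out each library in turn gave 0 to 1 and 0 to 3 of the 10, and 81 to 1857 and 1 to 1142 genes; WT replicate 1 gave the upper end of each, with Adra2a called higher and Galr1, Creb1 and Pde3b lower. Without WT replicates 1 and 2 together 1 and 2 of the 10 were called, and 884 and 331 genes; the lone WT library is then assumed to vary like the LCS libraries. DESeq2 called 0 and 4 of the 10 (Galr1, Gipr, Creb1 and Pde3b) and 919 and 575 genes. Limma-voom with sample quality weights called 1 and 6 (adding Glp1r and Chrm3 to the lower ones) and 2887 and 2370 genes. With no low-count filter 560 and 126 genes were called. A length offset called 0 of the 10 lower, with 24 and 3 genes in all; the length and GC offset called 67 and 42 genes. Against a 1.5-fold change 0 of the 10 were called lower, with 63 and 0 genes in all. The cause of these shifts was not tested. Direction turned for values that were not called: Gcgr (-0.055) and Pkig (-0.0093) with the length and GC offset, Ghrl with the length offset (-0.13) and the length and GC offset (-0.23), Ffar1 without LCS replicate 3 (range over single libraries left out -0.46 to 0.079) and Adcy5 without LCS replicate 1 (-0.091 to 0.73). At a minimum of 1 CPM Adcy5 was not tested. No paired analysis was possible because the labels give no numbers shared between the groups. The median of the ligand genes turned from 0.40 to -0.16 and -0.20 with these offsets. Adcy5 had 20 to 36 counts a library.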
